A study of Mus musculus with 12 samples.

Results

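The T cell identity and signaling genes were followed in subcutaneous fat and liver of mice given liver-directed human HKDC1. They are Cd3d, Cd3e, Cd3g, Cd4, Cd8a, Cd8b1, Lck, Cd247, Zap70 and Foxp3, chosen by symbol for their known roles. They are 10 of the 54532 genes in the count table, and each symbol belongs to 1 gene. All samples were from male mice bought from the Jackson Laboratory, whose strain is not given in the sources used here. At 10 weeks of age the mice received AAV8 by tail vein, carrying either full-length human HKDC1 (hHKDC1 OE) or no transgene (null), and the tissues were taken 16 weeks later on a low-fat diet. Both vectors carried the TBG promoter, which acts in hepatocytes, so the null mice were given virus as well. RNA was sequenced in 3 libraries per group, 12 in all. Per the study, each fat library came from a mouse of its own. The labels do not say this of the liver libraries, where p-values measure the spread between libraries, and do not tie a fat library to a liver library of the same mouse.

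A T cell recognizes antigen through its T cell receptor, which cannot signal without the CD3 gamma, delta and epsilon chains and the zeta chain encoded by Cd247. CD4 and CD8 are coreceptors that bind MHC class II and class I and bring the kinase LCK to the complex. LCK phosphorylates the CD3 and zeta tails, ZAP70 docks there and passes the signal on, and FOXP3 is the transcription factor of regulatory T cells, which are known residents of adipose tissue.

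All libraries had between 15496019 and 19954971 counts on genes. Mouse Hkdc1 had 0 to 8 counts in every library, and the human transgene is not a row of the table, so the labels could not be checked on the delivered gene. The tissue labels held: the summed level of 7 adipocyte genes was 9809 to 18416 CPM (counts scaled to library size) in fat and 123 to 161 CPM in liver, and that of 8 hepatocyte genes was 71136 to 118085 CPM in liver and 1761 to 9240 CPM in fat. Treatment labels call every hHKDC1 OE library overexpression, and the titles hold only FL where those of null libraries hold Nu. A description field, however, calls hHKDC1 OE replicates 2 and 3 of each tissue knockouts. Replicate 2 of hHKDC1 OE fat stood apart from the others: the members summed to 971 counts there, against 11774 in replicate 1 and 9998 in replicate 3. Calls in fat are given with and without it. Because it was singled out by the members' own values, the calls without it are a description and not independent evidence.

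The CD3 genes lie side by side on chromosome 9 of GRCm38. Cd3g (9:44969572-44980431, minus strand) and Cd3d (9:44981786-44987339, plus strand) point away from each other with 1355 bases between their starts, and Cd3e (9:44998740-45009627, minus strand) lies 11401 bases beyond the end of Cd3d. Cd8b1 (6:71322788-71337494) and Cd8a (6:71373427-71379173) are neighbors on the plus strand of chromosome 6, 35933 bases apart, and Cd4 (6:124864692-124888221, minus strand) is farther along it. Lck is at 4:129548344-129573641 on the minus strand. Cd247 (1:165788681-165877277), Zap70 (1:36761798-36782818) and Foxp3 (X:7579676-7595243) are on the plus strand.

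RefSeq promoter windows on GRCm38.p6 were found for 8 of the 10 members, all but Cd4 and Cd8b1. The 250 bases before the start are printed for the 3 CD3 genes, which were high and low in the same fat libraries, and for Cd247 and Zap70, the members with a level of their own in null fat or liver. Capitals mark AGGAAG (the core bound by ETS factors), CTTTGA (TCF and LEF factors), TGTGGT (RUNX factors) or TATAAA (the TATA box) on either strand.
Cd3g, chr9:44980432-44980681, - strand: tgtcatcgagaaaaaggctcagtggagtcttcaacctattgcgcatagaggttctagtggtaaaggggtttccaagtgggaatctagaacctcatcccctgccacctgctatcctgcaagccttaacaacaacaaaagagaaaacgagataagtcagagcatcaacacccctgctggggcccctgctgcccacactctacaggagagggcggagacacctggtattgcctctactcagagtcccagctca
Cd3d, chr9:44981536-44981785, + strand: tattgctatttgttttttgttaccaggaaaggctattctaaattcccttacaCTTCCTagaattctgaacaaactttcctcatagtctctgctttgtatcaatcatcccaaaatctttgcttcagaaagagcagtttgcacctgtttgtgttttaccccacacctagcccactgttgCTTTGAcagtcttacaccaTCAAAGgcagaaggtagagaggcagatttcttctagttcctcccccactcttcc
Cd3e, chr9:45009612-45009861, - strand: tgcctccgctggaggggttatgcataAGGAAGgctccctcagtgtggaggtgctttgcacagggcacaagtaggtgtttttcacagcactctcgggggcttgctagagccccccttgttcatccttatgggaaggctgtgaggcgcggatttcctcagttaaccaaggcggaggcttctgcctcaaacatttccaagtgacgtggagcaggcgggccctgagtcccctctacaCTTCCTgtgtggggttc
Cd247, chr1:165788431-165788680, + strand: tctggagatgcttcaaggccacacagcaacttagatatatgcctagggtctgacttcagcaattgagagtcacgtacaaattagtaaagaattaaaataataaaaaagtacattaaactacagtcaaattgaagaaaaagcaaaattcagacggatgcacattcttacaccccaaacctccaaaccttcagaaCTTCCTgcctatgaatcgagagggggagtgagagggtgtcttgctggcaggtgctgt
Zap70, chr1:36761548-36761797, + strand: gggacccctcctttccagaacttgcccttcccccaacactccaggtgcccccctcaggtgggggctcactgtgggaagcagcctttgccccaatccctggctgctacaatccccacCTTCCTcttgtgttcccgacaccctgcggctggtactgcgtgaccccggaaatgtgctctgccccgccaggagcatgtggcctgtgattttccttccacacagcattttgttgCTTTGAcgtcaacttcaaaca
No motif was found in all windows of the 3 CD3 genes. Cd3d held 1 ETS match and 2 TCF and LEF matches, Cd3e held 2 ETS matches, and Cd3g held none of the 4 motifs. Cd247 held 1 ETS match, and the first of 3 Zap70 windows held 1 ETS match and 1 TCF and LEF match. Of 32851 windows of the same length over all genes, 29.5% held the ETS motif, 13.8% the TCF and LEF motif, 14% the RUNX motif and 12.4% the TATA box. These are matches of letters only.

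The first comparison was hHKDC1 OE against null in subcutaneous fat, a tissue other than the one the vector's promoter targets. All T cell genes but Cd247 had at most 61 counts in every null library, and all 10 had at least 137 counts in hHKDC1 OE replicates 1 and 3. The members' counts summed to 194, 199 and 374 in null fat. The sums in hHKDC1 OE fat correspond to 558, 47.5 and 615 CPM, against 11.8, 12.3 and 20 CPM in null fat. In bulk tissue, more T cells and more of these transcripts per cell cannot be told apart.

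Among the CD3 chains, Cd3d had 7, 4 and 16 counts in null fat against 1081, 81 and 976 counts in hHKDC1 OE fat, a log2 fold change of 6.19 (SE 1.1). Cd3g had 10, 7 and 39 counts against 1057, 69 and 1123, a log2 fold change of 5.26 (SE 1.17). For Cd3e, 23, 13 and 34 counts stood against 1071, 64 and 1041, a log2 fold change of 4.86 (SE 1.05). For each of the 3 genes every hHKDC1 OE library was above every null library, and replicate 2 lay nearer to the null range than replicates 1 and 3 did. As CPM, Cd3e was 1.34 ± 0.509 (SD, n = 3) in null fat against 39.3 ± 32 (SD, n = 3) in hHKDC1 OE fat, so the spread of the hHKDC1 OE group was nearly as large as its mean.

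The coreceptors were higher by the same order. Cd8b1, the beta chain of CD8, had 2, 13 and 7 counts in null fat against 1347, 103 and 1294 in hHKDC1 OE fat, with a log2 fold change of 6.82 (SE 1.18), the largest of the 10 members. Its lead over Cd8a and Cd3d was smaller than this SE. Without null fat replicate 3, Cd3d was the larger, at 6.76 against 6.68 for Cd8b1. Cd8a, the alpha chain, had 10, 9 and 20 counts against 1593, 112 and 1613, with a log2 fold change of 6.3 (SE 1.1). Cd4 had 14, 14 and 36 counts against 1490, 103 and 1069, with a log2 fold change of 5.26 (SE 1.01). The groups did not overlap for any of these coreceptor genes.

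The kinases followed with smaller differences for Zap70. Lck had 14, 19 and 55 counts in null fat against 2594, 196 and 1762 in hHKDC1 OE fat, a log2 fold change of 5.58 (SE 1.03). Zap70 had 22, 16 and 61 counts against 719, 57 and 568, a log2 fold change of 3.67 (SE 0.96). It was the only member whose groups overlapped: hHKDC1 OE replicate 2 was at 2.79 CPM, below null replicate 3 at 3.26 CPM.

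Cd247 differed from the other members in its null level. It had 92, 97 and 95 counts in null fat, the highest null count of the 10 members in each of these libraries, and 655, 164 and 415 in hHKDC1 OE fat, a log2 fold change of 1.95 (SE 0.48). The counting ignored strand, and 3007 of the 5329 exonic bases of Cd247 lie under exons of Pou2f1, a transcription factor gene on the opposite strand that had 246 to 286 counts in null fat against 270 to 424 in hHKDC1 OE fat. The part of such overlap in the Cd247 counts was not tested. Foxp3 had the lowest mean FPKM of the members in both fat groups. Its counts were 0, 7 and 11 in null fat against 167, 22 and 137 in hHKDC1 OE fat, a log2 fold change of 4.04 (SE 1.11). The counted Foxp3 gene is 3989 bases long, and the Foxp3 of the GENCODE M21 annotation differs from it in position. Of the 4577 exonic bases in that annotation, 853 are shared with the non-coding gene Flicr (5 to 14 counts in null fat, 13 to 20 in hHKDC1 OE fat) and 590 with Ccdc22.

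**Figure D1:**
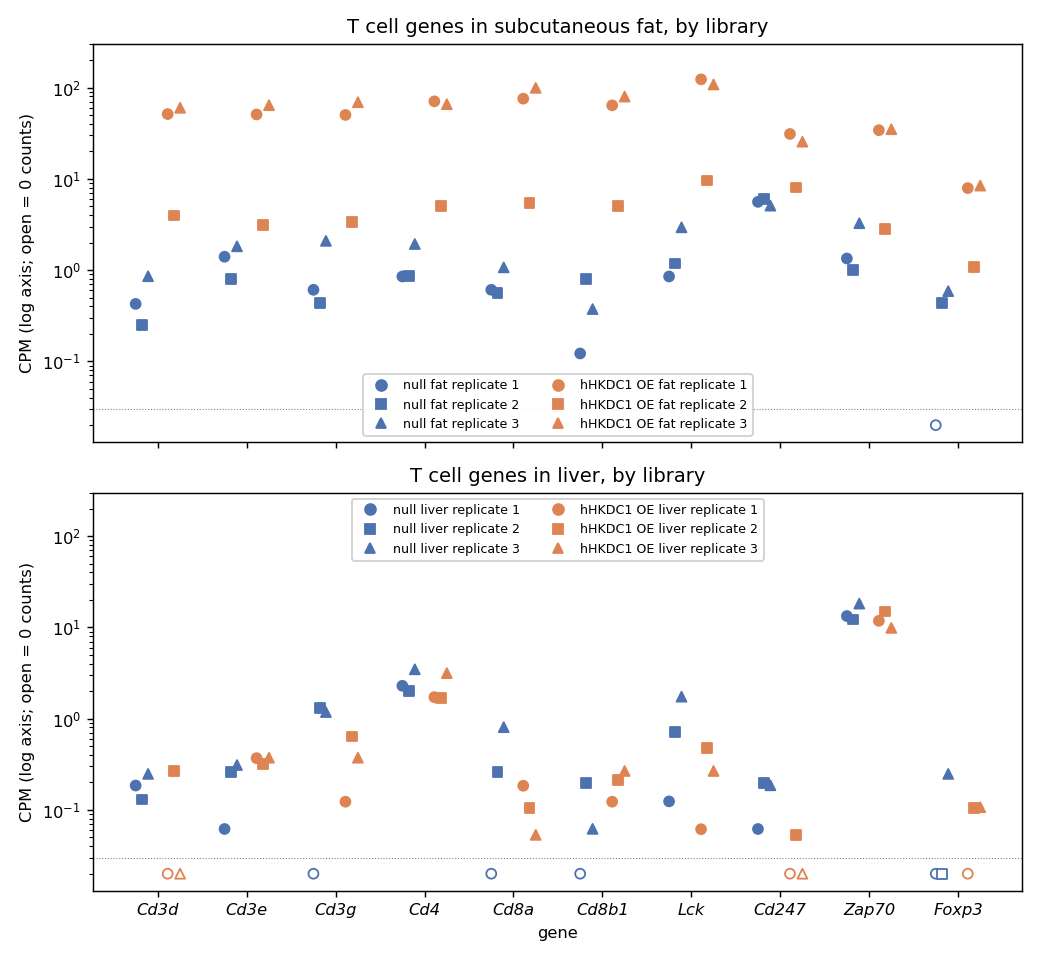
Level of each T cell gene in each library, in CPM on a log axis, with subcutaneous fat above and liver below. Blue points are null libraries, orange points are hHKDC1 OE libraries, the shape gives the replicate, and open points at the bottom had 0 counts. In fat, hHKDC1 OE replicates 1 and 3 lie above every null library for all 10 genes, while replicate 2 (squares) lies between them and null for 9 of the 10. In liver Zap70 is the highest at 9.87 to 18.2 CPM.

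In edgeR's quasi-likelihood test, adjusted over 16380 genes by Benjamini-Hochberg, 0 of the 10 members passed an adjusted p of 0.05 (0% of all genes were called higher). Their adjusted p ran from 0.133 for 7 of the members to 0.152 for Foxp3 in edgeR. At an unadjusted p under 0.05, all 10 were higher, beside 11.3% of all genes. Cd3d, Cd3g, Cd8a, Cd8b1 and Foxp3 each had a null library under 10 counts and passed the filter through hHKDC1 OE fat, where they were high. With at least 10 counts required in every library, 5 members were left to test and 0 were called. The median log2 fold change of the members was 5.26 and that of all genes tested was -0.05. For 9 members every hHKDC1 OE library was above every null library, which held for 12.5% of all genes.

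The call differed between fits, and within the main edgeR fit it turned on a single library. DESeq2, the tool named in the study's methods, called all 10 members higher on the same 6 libraries, beside 6.51% of the 19295 genes it gave an adjusted p. Its adjusted p ranged from 6.04e-07 for Cd8a to 0.000941 for Cd247, with log2 fold changes close to those of edgeR (6.34 and 1.96). DESeq2 also scales and filters differently, and edgeR itself called 10 of the 10 without the low-count filter (723 of all 29853 genes were called higher) and 9 in a fit of all 12 libraries (770 of 17070). Without hHKDC1 OE replicate 2, edgeR also called all 10, beside 11.4% of 17190 genes. Leaving out any of the other 5 fat libraries gave 0 called members, and the smaller spread without replicate 2 follows from dropping the library chosen for its low values. The edgeR adjusted p was then 0.000204 for Cd8a and 0.013 for Foxp3, and the log2 fold changes ran from 2.33 (SE 0.21) for Cd247 to 7.35 (SE 0.47) for Cd8b1. Limma on log2(FPKM + 1), where FPKM is fragments scaled for gene length and by a factor per library, called 0 of the 10, with 10 at an unadjusted p under 0.05.

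**Figure D2:**
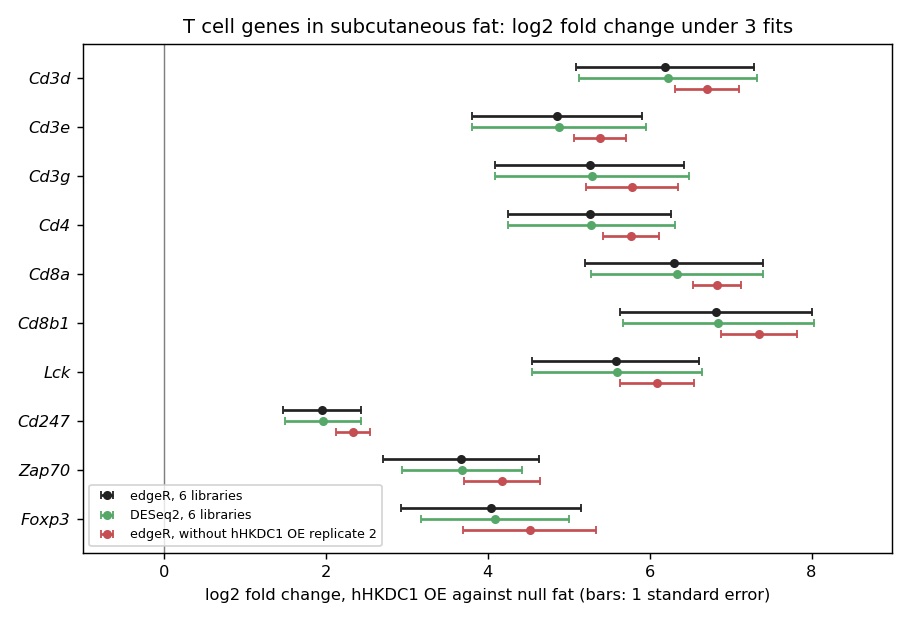
Log2 fold change of each T cell gene in subcutaneous fat, hHKDC1 OE against null, with bars of 1 standard error, from edgeR and DESeq2 on 6 libraries and from edgeR without hHKDC1 OE replicate 2. The estimates of the 3 fits lie within about a standard error of each other, and the bars shorten without that library, for example from 1.1 to 0.3 for Cd8a. Every estimate is above 0.

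Replicate 2 was lower than the other hHKDC1 OE fat libraries in all 10 members, and by similar factors. In CPM, replicate 1 was 12.2 to 16.2 times and replicate 3 was 11.3 to 20.5 times replicate 2 for 8 of the members. The exceptions were Foxp3 (7.32 and 7.8 times) and Cd247 (3.87 and 3.18 times). Set against the mean of the null libraries, replicate 2 was 1.44 times as high for Cd247, 1.5 times for Zap70 and 11.6 times for Cd8b1. Null replicate 3 was the highest of the null libraries for 8 of the 10 members.

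The make-up of the T cell signal was more alike among hHKDC1 OE libraries than its size. Levels are compared between genes per length, as each gene's percentage of the summed FPKM of the 10 members. Cd8b1 took 21.7%, 21.1% and 24.1% in hHKDC1 OE replicates 1, 2 and 3, and Lck took 21.2%, 20.3% and 16.6%. Cd3d took 14.2%, 13.6% and 14.8%, so these genes held close to the same place in replicate 2 as in the others. In null fat, Cd247 took 34.8%, 33.7% and 16.5%, whereas in hHKDC1 OE fat it took 2.94%, 9.34% and 2.15%. Mean FPKM in hHKDC1 OE fat ran from 23.3 ± 18.3 (SD, n = 3) for Cd8b1 through 19.1 ± 14.5 for Lck, 14.8 ± 11.5 for Cd3d, 11.5 ± 9.28 for Cd8a, 8.71 ± 7.17 for Cd3g, 8.15 ± 6.26 for Cd4, 6.72 ± 5.44 for Cd3e, 5.58 ± 4.23 for Zap70 and 2.84 ± 1.52 for Cd247 to 1.02 ± 0.707 for Foxp3. Neighbors in this order from Cd8b1 to Zap70 differed by less than the SD of either. That SD is between libraries and includes the low replicate 2. Within each of the 3 libraries Cd8b1 was above Lck, Lck above Cd3d and Cd3d above Cd8a, while Cd3g and Cd4 changed places between libraries.

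The balance of the coreceptors within a library does not depend on how libraries are scaled. The ratio of Cd4 to Cd8a FPKM was 1.26, 1.4 and 1.62 in null fat against 0.844, 0.83 and 0.598 in hHKDC1 OE fat. Cd4 was thus the higher of the pair in every null library and Cd8a in every hHKDC1 OE library, replicate 2 included. The means were 1.43 ± 0.182 and 0.757 ± 0.138 (SD, n = 3 each), a difference of -0.673 with an exact two-sided permutation p of 0.1, the smallest that 3 against 3 libraries allow. The null ratios rest on 9 to 36 counts per gene. The ratio of Foxp3 to Cd3e FPKM, regulatory T cell transcript beside that of T cells in all, was 0, 0.551 and 0.331 in null fat against 0.159, 0.352 and 0.135 in hHKDC1 OE fat. These groups overlapped, with a difference of -0.0787 (exact two-sided permutation p of 0.7).

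Other genes of the T cell receptor pathway were given as fixed lists, of which edgeR called 0 genes in either direction in fat. Of 30 genes of T cell receptor signaling, all were tested, 29 had a log2 fold change above 0, 25 were higher at an unadjusted p under 0.05, and the median was 3.45. DESeq2 called 19 of them higher, and edgeR without hHKDC1 OE replicate 2 called 27. Over all genes, 11.3% were higher at an unadjusted p under 0.05 in edgeR, 6.51% in DESeq2 and 11.4% without that library. The largest differences were for Lat, the membrane adaptor that ZAP70 phosphorylates (log2 fold change 5.62, SE 1.21), and for Grap2, an adaptor of the same complex (5.17, SE 0.94). Themis, a T cell adaptor, had a log2 fold change of 4.93 (SE 1.37). At the other end were genes that many cell types use: Plcg1 had a log2 fold change of -0.2 (SE 0.21) and Nck1 of 0.01 (SE 0.16).

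All 12 T cell transcription factors were tested and had a median log2 fold change of 2.2. Of these, 8 were higher at an unadjusted p under 0.05, DESeq2 called 8, edgeR without hHKDC1 OE replicate 2 called 9, and 7 had groups that did not overlap. Over all genes these shares were 11.3%, 6.51%, 11.4% and 12.5%. Lef1, a factor of naive T cells, had 2, 0 and 5 counts in null fat against 1100, 97 and 1122 in hHKDC1 OE fat. Tcf7, which encodes TCF1, had a log2 fold change of 5.46 (SE 1), and Bcl11b, which maintains T cell identity, of 3.96 (SE 1.15).

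Genes of naive T cells and of homing held some of the widest differences. Of 7 tested, 6 were higher at an unadjusted p under 0.05 and 6 were called by DESeq2 and by edgeR without hHKDC1 OE replicate 2, with a median log2 fold change of 4.01. Over all genes 11.3%, 6.51% and 11.4% were higher, in that order. Ccr7, the receptor for the lymph node chemokines CCL19 and CCL21, had 5, 4 and 15 counts in null fat against 1899, 140 and 1678 in hHKDC1 OE fat. Il7r, the receptor of the survival cytokine interleukin 7, had a log2 fold change of 4.54 (SE 0.91), while S1pr1, a receptor for egress from lymphoid tissue that endothelium also uses, had one of -0.21 (SE 0.14).

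The medians of the cytotoxic effector and regulatory T cell lists were 3.18 and 1.52. Of 8 cytotoxic effector genes, 5 were tested, 3 of them were higher at an unadjusted p under 0.05, and DESeq2 called 3. Ccl5, a chemokine of effector T cells, had a log2 fold change of 4.86 (SE 0.98) and Prf1, which encodes perforin, of 3.18 (SE 0.8). The granzymes were low throughout: Gzma had 15, 13 and 38 counts in null fat against 45, 48 and 45 in hHKDC1 OE fat, and Gzmb had 11, 10 and 27 against 25, 28 and 66. Of 10 regulatory T cell genes other than Foxp3, 8 were tested, 5 were higher at an unadjusted p under 0.05 and DESeq2 called 5. Tnfrsf4, which encodes OX40, and Ctla4 led them at 4.51 (SE 0.93) and 4.2 (SE 1.01). Of 9 costimulation and checkpoint genes, 7 were tested, 6 of these were higher at an unadjusted p under 0.05, and their median was 4.12, with Icos at 6.11 (SE 1.23) and Btla at 6.07 (SE 1.03). DESeq2, which kept more low genes, called 7 of the 9. Without hHKDC1 OE replicate 2, edgeR called 3 cytotoxic effector, 7 regulatory T cell and 8 costimulation and checkpoint genes higher. Over all genes, 11.3% were higher at an unadjusted p under 0.05 in edgeR, 6.51% in DESeq2 and 11.4% without that library.

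**Figure D3:**
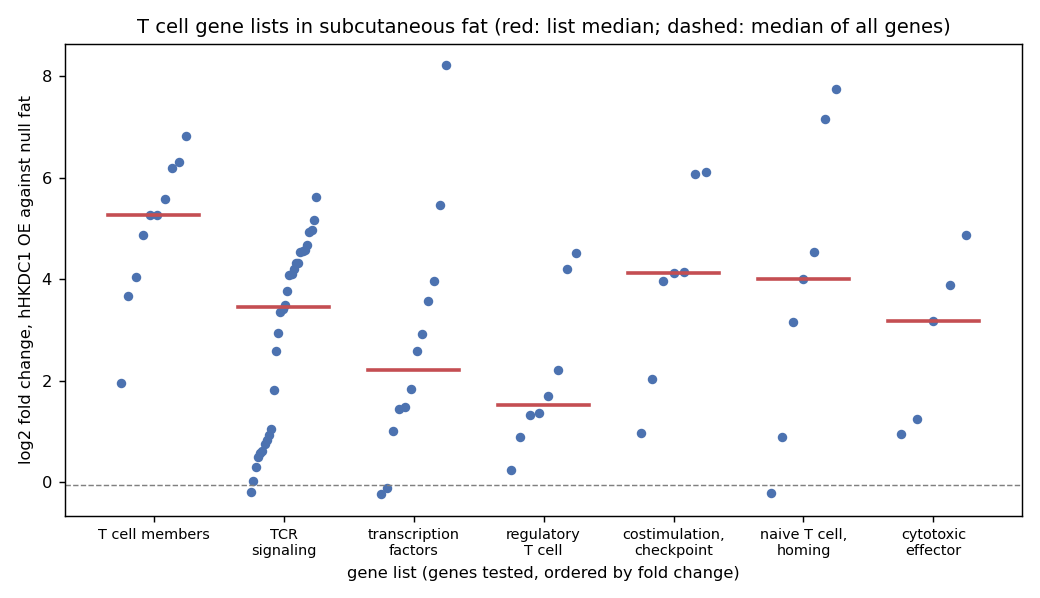
Log2 fold change in subcutaneous fat, hHKDC1 OE against null, for every tested gene of the members and of 6 other T cell gene lists. Each point is a gene, the red bar is the list median, and the dashed line is the median of all genes tested (-0.05). Medians ran from 1.52 for regulatory T cell genes to 5.26 for the members.

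Markers of B cells and of lymph node tissue were high in the same libraries as the T cell genes. All 12 B cell markers were tested, 12 of 12 had groups that did not overlap, edgeR called 0 with 12 at an unadjusted p under 0.05, and DESeq2 and edgeR without hHKDC1 OE replicate 2 each called all 12, with a median log2 fold change of 7.61. Over all genes 12.5% were higher without overlap, 11.3% at that unadjusted p, 6.51% in DESeq2 and 11.4% without replicate 2. Only 2 of the 12 markers passed the filter in null fat against null liver. The rest were tested in fat through the hHKDC1 OE libraries, where they were high. The summed level of the B cell markers was 2.85 to 6.38 CPM in null fat against 1050, 61.2 and 800 CPM in hHKDC1 OE fat, with replicate 2 the lowest of the hHKDC1 OE libraries as for the T cell genes. The B cell sum was 0.541, 0.232 and 0.283 times the members' sum in null fat and 1.88, 1.29 and 1.3 times in hHKDC1 OE fat. Among 6 markers of lymph node stroma and high endothelial venules, 3 passed the filter in fat, edgeR called 0 with 3 at an unadjusted p under 0.05, DESeq2 called 4, and edgeR without hHKDC1 OE replicate 2 called 6. Glycam1 and Ccl21a passed through hHKDC1 OE fat, where they were high. Ccl21a, a chemokine that draws CCR7-bearing cells, had 20, 1 and 0 counts in null fat against 1299, 15 and 76 in hHKDC1 OE fat, and its groups overlapped. Glycam1, which encodes a mucin of these venules, had 0, 0 and 1 counts in null fat against 591, 43 and 348 in hHKDC1 OE fat. Chst4, a sulfotransferase gene of these venules, had 0 counts in all null fat libraries and 50, 4 and 28 in hHKDC1 OE fat, and Madcam1 had 0, 2 and 0 against 46, 7 and 47. Cxcl13, the chemokine of B cell follicles, had 69, 21 and 57 counts against 1130, 158 and 985. The summed level of the 6 was 1.49 to 5.41 CPM in null fat against 148, 11.1 and 92.6 CPM in hHKDC1 OE fat. The part of B cells or lymph node tissue in the T cell result was not tested.

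Markers of NK cells, which share genes with T cells, were at lower levels. The 5 NK cell markers summed to 1.8 to 3.53 CPM in null fat against 18.5, 5.13 and 18.4 CPM in hHKDC1 OE fat. Of the 5, 4 were higher at an unadjusted p under 0.05 and 3 had groups that did not overlap, edgeR called 0, DESeq2 called 1, and edgeR without hHKDC1 OE replicate 2 called 2. Over all genes the shares were 11.3%, 12.5%, 0%, 6.51% and 11.4%, in that order. Of the 4 thymocyte genes 0 passed the filter in fat, where Rag1 and Ptcra had 0 counts in every library. Dntt had 0 to 8 counts in null fat and 3 to 28 in hHKDC1 OE fat. The 4 genes summed to 8, 0 and 9 counts in null fat against 23, 3 and 28 in hHKDC1 OE fat. The 7 adipocyte genes summed to 14757, 16807 and 18416 CPM in null fat against 9809, 16455 and 10503 CPM in hHKDC1 OE fat, so the libraries with the highest T cell sums had the lowest adipocyte sums. No adipocyte gene reached an unadjusted p under 0.05 in edgeR on the 6 libraries and DESeq2 called 0 of them, but edgeR without hHKDC1 OE replicate 2 called 2 of the 7 lower, beside 1294 of all 17190 genes. The 8 hepatocyte genes summed to 3653, 3864 and 9240 CPM in null fat against 2790, 1761 and 2533 CPM in hHKDC1 OE fat, and the median of their log2 fold changes was -1.37. EdgeR called 0 of them, with 4 lower at an unadjusted p under 0.05, DESeq2 called 2 lower, beside 196 of all 19295 genes, and edgeR without hHKDC1 OE replicate 2 called 0. Null fat replicate 3 had the highest hepatocyte sum and was also the null library whose Zap70 level overlapped hHKDC1 OE fat. The parts of liver RNA and of tissue make-up in the T cell result were not tested.

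**Figure D4:**
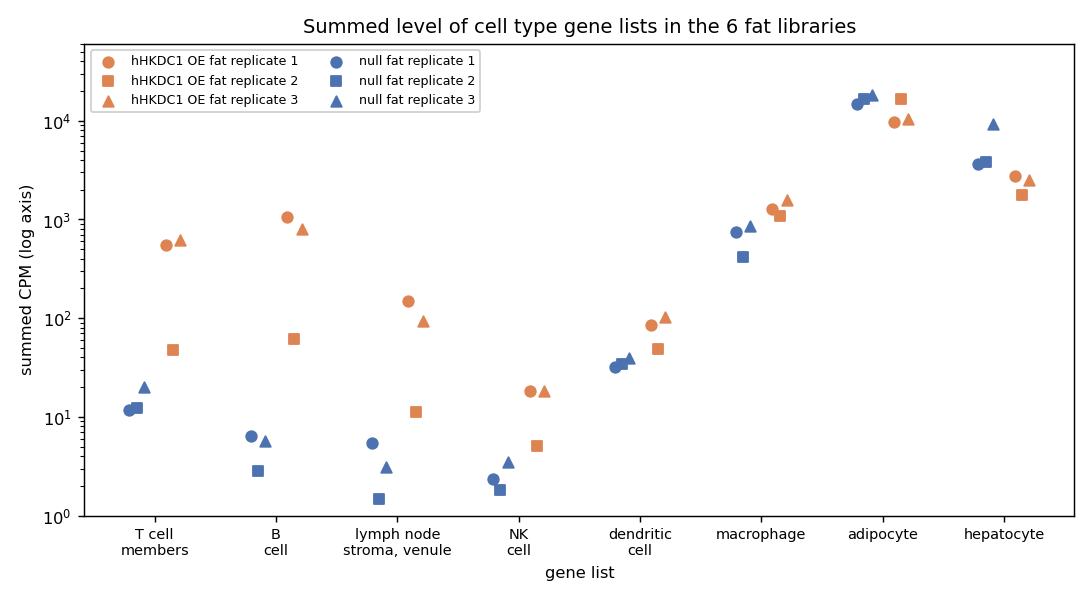
Summed level of the T cell members and of 7 cell type marker lists in the 6 fat libraries, in CPM on a log axis. Blue points are null, orange points are hHKDC1 OE, and the shape gives the replicate. T cell, B cell and lymph node sums are high in hHKDC1 OE replicates 1 and 3 and intermediate in replicate 2, while the adipocyte sum of replicate 2 (16455 CPM) lies within the null range.

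Over all 12 libraries, the genes whose log2 CPM followed the members' summed level most closely were Tcf7 (Pearson r of 0.9879), Plcb2 (0.9835), Abracl (0.9806), Spib (0.976), Marcksl1 (0.9707), Ifi30 (0.9702), Cd22 (0.9696), Rplp2 (0.9656), Gmfg (0.9637) and Rps19 (0.9632), among 17070 genes. Tcf7 is a T cell factor, Spib and Cd22 are B cell genes on the lists above, and Rplp2 and Rps19 encode ribosomal proteins. Tcf7 had 33, 33 and 55 counts in null fat against 3009, 200 and 2545 in hHKDC1 OE fat, and 59 to 78 in liver. These correlations are descriptions over 12 libraries in which hHKDC1 OE fat replicates 1 and 3 lie far from the rest.

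The second comparison was hHKDC1 OE against null in liver, the organ that the promoter targets. All T cell genes but Zap70 had at most 59 counts in any liver library, and no member showed a difference past the test. The members' counts summed to 260, 265 and 426 in null liver and 234, 353 and 271 in hHKDC1 OE liver, and most of each sum was Zap70. Zap70 had 216, 187 and 293 counts in null liver and 192, 280 and 185 in hHKDC1 OE liver. Cd4 had 37, 31 and 56 counts against 28, 32 and 59. For both genes the groups overlapped.

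The other 8 members were low in liver. Cd3e had 1, 4 and 5 counts in null liver and 6, 6 and 7 in hHKDC1 OE liver, while Cd3d had 3, 2 and 4 against 0, 5 and 0. Cd3g had 0, 20 and 19 counts against 2, 12 and 7, and Lck had 2, 11 and 28 against 1, 9 and 5. Cd247 had 1, 3 and 3 counts against 0, 1 and 0. Neither Cd3e nor Cd247 had the counts to pass the filter in liver. Cd8a ranged from 0 to 13 counts, Cd8b1 from 0 to 5 and Foxp3 from 0 to 4 over the 6 liver libraries. At these depths a difference in these genes was not detectable unless large, since a count of 0 allows up to 3.

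Only Cd3g, Cd4 and Zap70 passed the low-count filter in liver. EdgeR called 0 of the 3 (0% of 13351 genes), and 0 of the 3 reached an unadjusted p under 0.05, beside 6.94% of all genes. Zap70 had a log2 fold change of -0.26 (SE 0.22, edgeR adjusted p of 0.87), Cd4 of -0.24 (SE 0.4, edgeR adjusted p of 0.945) and Cd3g of -1.09 (SE 1.03, edgeR adjusted p of 0.891). DESeq2 gave an adjusted p to 2 members and called 0 of them, beside 0.711% of all genes. Without the filter all 10 members were tested in edgeR, and 0 were called or reached an unadjusted p under 0.05, where 327 of all 24792 genes were called. Of the 30 genes of T cell receptor signaling, 16 were tested in liver, edgeR called 0, and the median log2 fold change was 0.14 beside 0.01 for all genes.

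Whether the difference in fat exceeded that in liver was asked of an interaction term fitted to all 12 libraries. EdgeR called 0 of the 10 members (0% of 17070 genes), with adjusted p from 0.139 to 0.422, and 9 of the 10 reached an unadjusted p under 0.05 with the fat effect higher, beside 9% of all genes. For 7 members that did not pass the filter in liver alone, the liver effect in this fit rests on a few counts, and with at least 10 counts in every library 2 members were left to test, of which 0 were called. The estimated difference of the effects was 5.58 (SE 1.09) for Cd4 and 4.01 (SE 0.99) for Zap70 on the log2 scale, and 4.29 (SE 2.13) for Foxp3, the member that did not reach that level. DESeq2 called 9 of the 10, beside 2.36% of all genes, and edgeR without hHKDC1 OE fat replicate 2 also called 9, beside 3.92%. In both, the member not called was Foxp3, with an adjusted p of 0.255 in DESeq2 and 0.198 in edgeR.

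The last comparison set null fat against null liver, to place each gene's level without the transgene. Of the 10 members 6 passed the filter, and edgeR called 3 of them, beside 64.3% of all genes, so a called difference was the rule between these tissues. Zap70 was lower in fat, with a log2 fold change of -3.88 (SE 0.45, edgeR adjusted p of 0.000151), and Cd4 was lower in fat as well, at -2.01 (SE 0.47, edgeR adjusted p of 0.00632). Cd247 was higher in fat, at 4.26 (SE 0.47, edgeR adjusted p of 0.000125). Cd3e (1.72, SE 0.66, edgeR adjusted p of 0.0503), Cd3g (-0.57, SE 1.05) and Lck (0.03, SE 0.83) were not called. Scaling by library size alone moved the median log2 fold change of all genes from 0.09 to 0.98 and the called genes from 5163 higher and 4647 lower in fat to 9012 and 2286. Under it Cd4 was no longer called (-1.11, SE 0.5, edgeR adjusted p of 0.0789), Cd3e was called higher in fat (2.6, SE 0.68, edgeR adjusted p of 0.00931), Cd3g had the opposite sign (0.32, SE 1.08), and Zap70 and Cd247 kept their calls. With DESeq2's size factors Cd3e was called as well (edgeR adjusted p of 0.0471).

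In FPKM, Zap70 stood at 6.63 ± 1.35 (SD, n = 3) in null liver, the highest of the members there, and Cd4 followed at 0.875 ± 0.247. Next came Lck at 0.394 ± 0.371 and Cd3g at 0.341 ± 0.296, which did not differ beyond their spread, and Cd3e was at 0.0698 ± 0.0427. The Zap70 level of liver therefore stood beside CD3 chains of 0 to 20 counts. In null fat, Cd247 led at 0.773 ± 0.0486, then Zap70 at 0.466 ± 0.315 and Lck at 0.423 ± 0.295, and the remaining members lay between 0.0636 (Foxp3) and 0.245 (Cd3e). Zap70 in hHKDC1 OE fat, at 7.91, 0.7 and 8.13 FPKM, lay in replicates 1 and 3 near the top of its range over the 6 liver libraries (4.41 to 8.12 FPKM). This placing depends on the scaling. In CPM scaled within each tissue, replicates 1 and 3 were at 34.1 and 34.9, above the liver range of 9.87 to 18.2.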

How the data were processed

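Strand-unspecific counts per gene were made by the authors, who mapped reads with STAR 2.5 and counted them with HTSeq 0.6.1 per the labels. The deposited count table holds whole numbers without normalization. The study's methods name a human genome, but its identifiers are murine: 99.8% occur in GENCODE M21, 98.1% at an identical position, and coordinates are therefore GRCm38. The authors also deposited FPKM, and 100% of 252371 values above 0 came within 1% of the count divided by length after scaling per library. That scaling was not by total count alone. Zap70 had 293 counts and 8.12 FPKM in null liver replicate 3, but 719 counts and 7.91 FPKM in hHKDC1 OE fat replicate 1. The deposited tables of the authors' own comparisons (fold changes, p-values) were not used. All columns were mapped to a sample (0 left out).

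Libraries were grouped by title. Counts were fitted per tissue with edgeR 4.0.16 in R 4.3.3 (glmQLFit, glmQLFTest, TMM, filterByExpr, Benjamini-Hochberg over all genes tested, called at an adjusted p under 0.05), and the interaction over 12 libraries. CPM used TMM within a tissue. DESeq2 1.42.0 and limma 3.58.1 were alternatives, with other scalings, filters, a replicate block and each library left out. Groups were called not overlapping where every library of one group was above every library of the other. The fits were tested on simulated data. Replicates differed by a chi-square of 19.8 to 154 per gene, so none was counted as the same library.

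The members and lists were chosen with earlier results of these data known. The genes named were the 10 members, up to 4 genes per list by their log2 fold change in fat with defining markers, and the 10 genes most correlated with the members' summed CPM. Genes with the smallest differences, the granzymes, Cd163, Lep and overlapping genes were named after their values were seen. Some genes of the lists are not reported here by name. Where a symbol belonged to 2 genes (Ccl21a, Ccl19), the row with more counts was used. Library depth was 15496019 to 19954971 counts, and a count of 0 allows up to 3. That limit covers counting error only.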

Additional observations from a re-analysis of the deposited data

How the results depend on the processing

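In fat, where edgeR called 0 of the 10 members, DESeq2 called 10, edgeR without a low-count filter called 10 (723 of all 29853 genes were higher), a single edgeR fit of the 12 libraries called 9 (770 of 17070), and edgeR with a replicate block called 3 (159 of 16380). Leaving out each library in turn gave 0 to 10, and the count of 10 came only without hHKDC1 OE fat replicate 2. For the difference between the fat and liver effects, DESeq2 called 9, edgeR without the filter called 7 (426 of all 31243 genes were higher), and leaving out each library gave 0 to 9, the 9 again without hHKDC1 OE fat replicate 2. The other scalings and limma left 0 in both. A minimum of 10 counts in every library left 5 members to test in fat, of which 0 were called. The log2 fold changes of the members in fat were above 0 under every alternative run.

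Departures from the group mean, compared between samples with the same replicate number, correlated at 0.01, -0.11 and 0.02 in fat. They correlated at 0.19, 0.13 and 0.04 in liver and at 0.21, 0.02 and 0.14 between the null tissues. The replicate numbers were therefore not taken as pairing, and the block called 0 in liver and 3 between tissues, as without it.

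The liver log2 fold change of Cd4 ran from -0.6 to 0.03 over the left-out libraries, above 0 without null liver replicate 3. The difference in the ratio of Foxp3 to Cd3e ran from -0.226 to 0.0498, above 0 without null fat replicate 2. The cause was not tested. Low counts limit the null fat and liver values, where most members had under 40 counts.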

Other observations

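The 6 dendritic cell markers summed to 32, 34.4 and 39.6 CPM in null fat against 85.9, 48.2 and 103 CPM in hHKDC1 OE fat. Their median log2 fold change was 2.31, and DESeq2 called 4 of them higher and edgeR without hHKDC1 OE replicate 2 called 3. Xcr1, the chemokine receptor of cross-presenting dendritic cells, had a log2 fold change of 3.69 (SE 0.8) and Flt3, the receptor that drives dendritic cell development, of 3.67 (SE 0.77). The 12 macrophage markers summed to 739, 416 and 869 CPM in null fat against 1263, 1097 and 1561 CPM in hHKDC1 OE fat, and their median log2 fold change was 0.77. Single markers lay on both sides of 0: Fcgr1 had a log2 fold change of 2.13 (SE 0.69) and Lyz2 of 1.87 (SE 0.43), and Mertk had one of -1.05 (SE 0.32). Cd163, a scavenger receptor of resident macrophages, had 1207, 684 and 1873 counts in null fat against 170, 2516 and 190 in hHKDC1 OE fat, and the adipokine gene Lep had 38562, 24637 and 45529 counts against 6698, 53476 and 5661. For both genes hHKDC1 OE replicate 2 was above every null library and replicates 1 and 3 below every null library. EdgeR called 0 genes of either list on the 6 libraries, with 5 dendritic cell markers higher, 5 macrophage markers higher and 1 lower at an unadjusted p under 0.05. DESeq2 called 3 macrophage markers higher, and edgeR without hHKDC1 OE replicate 2 called 3 higher and 2 lower, beside 1957 higher and 1294 lower of all 17190 genes. On the 6 libraries, 11.3% of all genes were higher at an unadjusted p under 0.05 in edgeR and 6.51% in DESeq2.

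In liver, 11 of 12 macrophage markers had a log2 fold change above 0 in hHKDC1 OE, with a median of 0.76 beside 0.01 for all genes. EdgeR called 0 of these markers, with 6 higher at an unadjusted p under 0.05, beside 6.94% of all genes in either direction.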
